A study of Mus musculus with 20 samples.

Results

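The proteasome subunit genes were taken as all autosomal protein-coding genes of the GENCODE mouse annotation (mm10) whose symbols start with Psma, Psmb, Psmc, Psmd, Psme, Psmf or Psmg, and 49 of 20807 autosomal protein-coding genes met this rule. By role they held 40 constitutive members, 5 immune members and 4 others. The constitutive members were 7 alpha and 7 beta subunits of the 20S core, 6 ATPases and 11 non-ATPases of the 19S cap, 2 chaperones of the 19S base, 4 chaperones of the 20S core, and 3 activators or inhibitors (Psme3, Psme4 and Psmf1). The immune members were the beta subunits Psmb8, Psmb9 and Psmb10 and the activator subunits Psme1 and Psme2. The other 4 were Psma8, a testis alpha subunit, Psmb11, a beta subunit of the thymus cortex, Psmc3ip, a meiotic recombination factor that shares only the symbol prefix, and Psme2b, a copy of Psme2.

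The proteasome is the protease that degrades ubiquitin-tagged proteins in the cytosol and nucleus. Its barrel-shaped 20S core holds stacked rings of alpha and beta subunits, with the proteolytic sites on Psmb5, Psmb6 and Psmb7, and the 19S cap recognises ubiquitin, unfolds the substrate with its ATPase ring and feeds it into the core. Under interferon, and constitutively in many blood cells, Psmb8, Psmb9 and Psmb10 replace the 3 proteolytic subunits and the Psme1 and Psme2 activator can take the place of the cap, which favours peptides for antigen presentation.

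The study asked how p300 (Ep300), a histone acetyltransferase, acts in blood progenitors that lack Tet2, an enzyme that oxidises methylated DNA. Chromatin immunoprecipitation with sequencing was run on lineage-depleted (Lin-) bone marrow cells of C57BL/6 mice of 4 genotypes. All 4 were homozygous for floxed Ep300 (Ep300 fl/fl): WT mice carried no further change, Ep300Δ/Δ mice also had the Mx1-Cre transgene that deletes it, Tet2-/- mice also lacked Tet2 in the germ line, and Ep300Δ/ΔTet2-/- mice had both changes. All received 3 doses of poly(I:C), an interferon inducer, from an age of 6 to 8 weeks, so the controls were exposed to it too, and the Mx1-Cre transgene, itself driven by an interferon-responsive promoter, was present in both Ep300-deleted genotypes and in neither of the others. Peak lists of H3K27ac, a mark of active promoters and enhancers, H3K4me3, a mark of promoters, and H3K4me1, a mark of enhancers and promoter flanks, were analysed, 12 lists in all from 20 samples. Histone marks do not measure the extent of the Ep300 deletion, and Mx1-Cre and the deletion cannot be told apart. The number of mice pooled for a library and their age at harvest were not given for these samples in the sources used here.

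Each mark had 1 library per genotype, so no difference between genotypes had a replicate check and none was tested. The lists held 18327 to 29659 peaks of H3K27ac, 25012 to 27807 of H3K4me3 and 90738 to 107392 of H3K4me1, and read depth was unknown. Of the H3K27ac peaks, 7.17% in the Ep300Δ/Δ list had a q above 0.05, against 0.78 to 0.9% in the other 3. Among 10 progenitor markers all 10 had an H3K4me3 peak in every genotype, and 7 had H3K27ac in every genotype. Cd34 was without it in Tet2-/- and Gata2 in Ep300Δ/ΔTet2-/-. Among 8 markers of mature lineages, the T-cell genes Cd3e and Cd8a had no peak of any mark, and 4, 2, 1 and 2 had an H3K27ac peak in WT, Ep300Δ/Δ, Tet2-/- and Ep300Δ/ΔTet2-/-. Their summed widths were 691 to 3017 bp, against 34172 to 43942 bp over the 10 progenitor markers. These sums run over whole gene bodies and so also depend on gene length, and Runx1 alone held 22401 of the 43942 bp in WT. The part of these differences between genotypes in the results that follow was not tested.

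For each gene the covered width was the number of bases, out of the gene body extended by 2 kb on each side, that lay in a peak of the mark. Where 4 values follow each other, they are for WT, Ep300Δ/Δ, Tet2-/- and Ep300Δ/ΔTet2-/- cells, in that order. A gene was called narrower or wider when it had a peak in both lists and its width differed by at least 1.5-fold, and lost or gained when it had a peak in only the first or only the second. In bulk cells, a mark present in fewer cells and a weaker mark in every cell cannot be told apart. Another coding gene started inside the stretch of 17 of the 49 members, so that part of a member's width can belong to its neighbour, and Psmb5 and Psmb11 lay so close that their stretches shared 590 bp, although no peak was counted in both.

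Promoter marks were present at every constitutive and immune member. H3K27ac and H3K4me3 each had a peak at 47 of 49 members (95.92%, exact Clopper-Pearson 95% interval 86.02 to 99.5) in every genotype, and the 2 without, Psmb11 and Psme2b, had none in any. Over all 20807 genes, 43.72% had H3K27ac and 63.58% had H3K4me3 in all 4 lists. All 40 constitutive and all 5 immune members had both marks everywhere. The intervals cover counting over genes only.

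Presence was wide, but the acetylated stretches were not. The median H3K27ac width of the 47 members with a peak was 1201, 947, 1112 and 995 bp, close to the 1254, 953, 1148 and 1053 bp of all genes with a peak. Members ranged in WT from 378 bp at Psmb6, the subunit with the caspase-like site, to 5327 bp at Psma6, an alpha subunit.

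**Figure D1:**
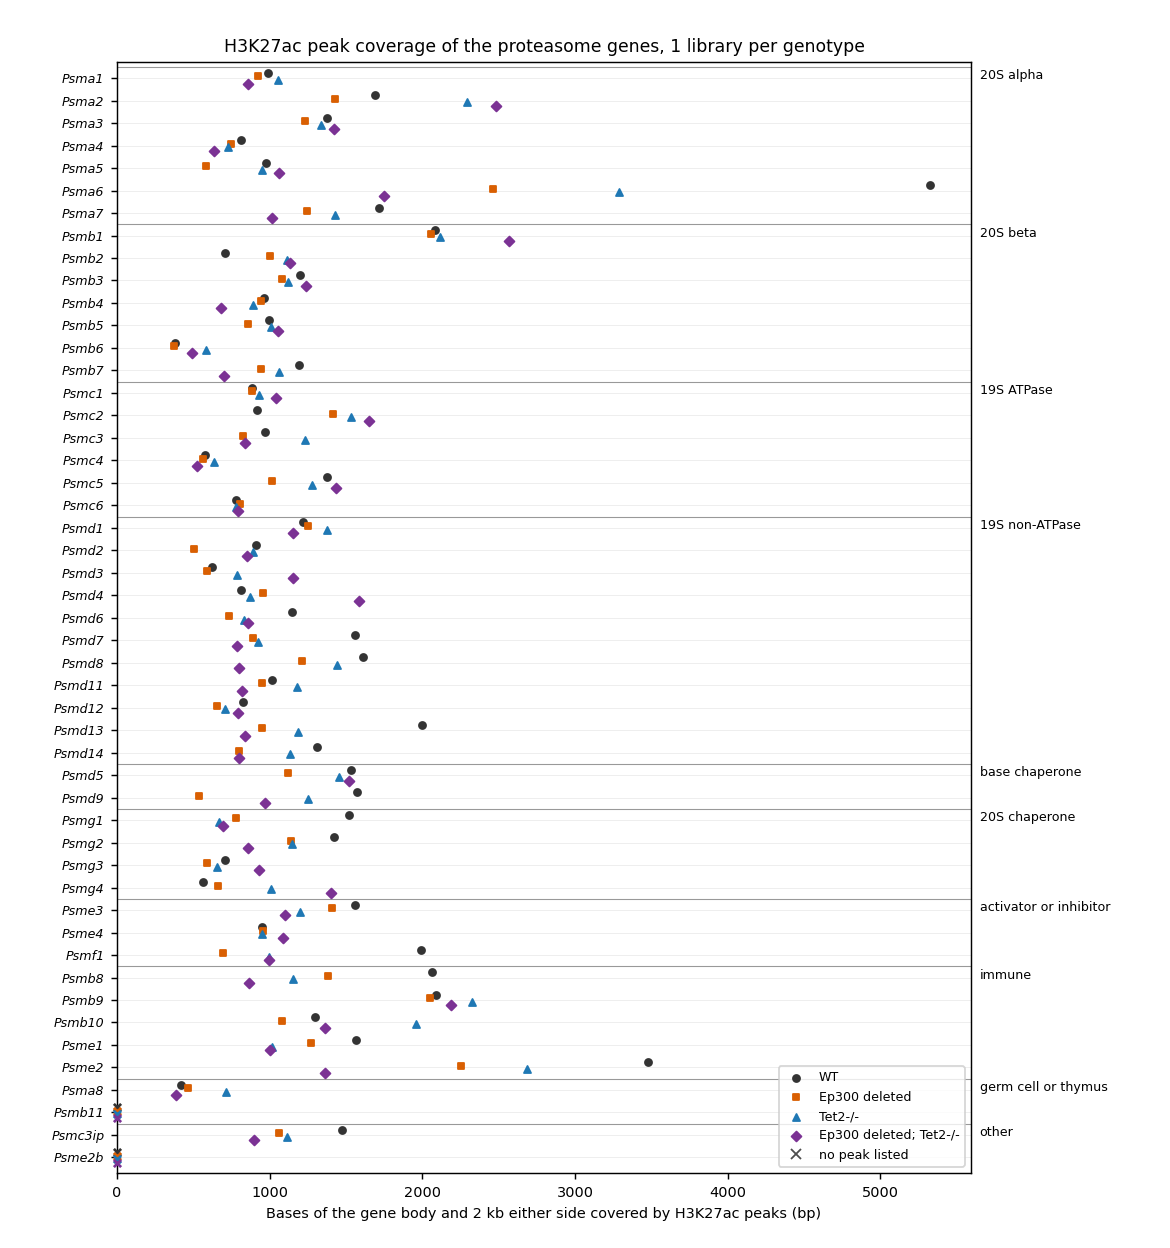
H3K27ac covered width in bp (x axis) for each proteasome gene (y axis, grouped by role), with a point for each of the 4 genotypes. Psma6 and Psme2 reach furthest right, at 5327 and 3480 bp in WT, and Psmb11 and Psme2b have no peak.

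The members were split by role to see where H3K27ac width differed after Ep300 deletion. Between WT and Ep300Δ/Δ, 11 of 47 members were narrower and 1 was wider, beside 37% narrower and 1.83% wider of all genes. The median log2 ratio was -0.24 over the members and -0.41 over all genes. The share of narrower members was 23.4%, or 29.79% (14 of 47) at -log10 q of at least 5. It was not tested against the 37% of all genes. None of the 47 lost its H3K27ac and neither of the 2 without gained it. Of all genes, 9.22% of those with a peak lost it and 2.88% of those without gained one. A count of 0 of 47 allows a share of up to 7.55% (exact Clopper-Pearson). Counted relative to the all-gene median shift, 4 members were narrower and 4 wider.

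The 11 narrower members were 5 of the 11 non-ATPases of the cap (45.45%, all genes 37%), 2 of 7 alpha subunits, a chaperone each of the base and the core, the inhibitor Psmf1 and the immune activator Psme2. None of the 7 beta subunits of the core and none of the 6 ATPases was narrower, and the 1 wider member, Psmc2, was an ATPase whose stretch also holds the start of Dnajc2. That call was lost (0 of 47) with the gene body alone, at -log10 q of at least 5 and with peaks nearest to the gene's start. Psmd13, a structural subunit of the lid, had 1998, 951, 1184 and 837 bp (log2 ratio -1.07 between WT and Ep300Δ/Δ). Its stretch holds the starts of Cox8b and Sirt3, and the peak at its own start measured 897, 361, 921 and 837 bp. Psmd14, the deubiquitinase that removes ubiquitin chains from substrates, had 1309, 796, 1135 and 802 bp (-0.72). Psmd2, a base subunit that docks ubiquitin shuttle proteins, had 910, 505, 889 and 854 bp (-0.85). In covered width Psmd14 and Psmd2 were lowest in Ep300Δ/Δ, Psmd14 by a few bases only, and Psmd13 was lowest in Ep300Δ/ΔTet2-/-.

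The 2 largest decreases were at a chaperone and at a regulator. Psmd9, a chaperone of the ATPase ring, had 1569, 536, 1248 and 968 bp, a log2 ratio of -1.55 between WT and Ep300Δ/Δ. Its gene spans 80.72 kb at chr5:123169413-123250131 and its stretch holds the starts of Hpd and Wdr66. The peak nearest to its own start did not cover the start and measured 598, 536, 604 and 452 bp, while intronic peaks over 2 kb from any start measured 971, 0, 644 and 516 bp, so most of its difference between WT and Ep300Δ/Δ lay away from that peak. Psmf1, a proteasome inhibitor, had 1989, 697, 994 and 995 bp (-1.51), all within 2 kb of its start and in 3 peaks in WT against 1 in each other genotype. Psmg1, a chaperone of the alpha ring, had 1518, 780, 670 and 697 bp (-0.96), with WT above the other 3.

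Psma6 had the widest H3K27ac of all members in every genotype but Ep300Δ/ΔTet2-/-, where Psmb1 (2568 bp), Psma2 (2482 bp) and Psmb9 (2186 bp) exceeded it, and was the only constitutive one narrower in both Ep300 comparisons. It had 5327, 2460, 3286 and 1750 bp of H3K27ac, which gave log2 ratios of -1.11 between WT and Ep300Δ/Δ and -0.91 between Tet2-/- and Ep300Δ/ΔTet2-/-. In WT, 4 of its 7 peaks lay in an intron more than 2 kb from any start, between chr12:55386646 and 55390464, and each overlapped an H3K4me1 peak. These intronic peaks numbered 4, 3, 4 and 1 and covered 2887, 834, 1903 and 185 bp, while its peaks near starts covered 2440, 1626, 1383 and 1565 bp. The intronic stretch was therefore lower with Ep300 deleted on both backgrounds, and the width near starts was lower in 1 of the 2. Peaks more than 2 kb from any start numbered 10, 3, 7 and 3 of the 89, 81, 78 and 74 H3K27ac peaks at members, and Psma6 held 4, 3, 4 and 1 of them. The whole lists held 29659, 22727, 24539 and 18327 peaks, and a like count over all genes is not given here.

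The 250 bases upstream of the RefSeq start (GRCm38.p6, 5′ to 3′ on the gene's strand) are shown for the 3 constitutive members with the largest summed decrease over both Ep300 comparisons, Psma6 (chr12:55398575-55398824, plus strand), Psmd9 (chr5:123227940-123228189, plus strand) and Psmd13 (chr7:140882144-140882393, plus strand). Where a gene had several RefSeq starts, the one most covered by WT H3K4me3 was taken. Capitals mark matches, on either strand, to the antioxidant response element TGACNNNGC that Nfe2l1 and Nfe2l2 bind, the interferon-stimulated response element (GAAA, any 2 bases, GAAA), or the kappa B core (GGG, any 5 bases, CC).
Psma6: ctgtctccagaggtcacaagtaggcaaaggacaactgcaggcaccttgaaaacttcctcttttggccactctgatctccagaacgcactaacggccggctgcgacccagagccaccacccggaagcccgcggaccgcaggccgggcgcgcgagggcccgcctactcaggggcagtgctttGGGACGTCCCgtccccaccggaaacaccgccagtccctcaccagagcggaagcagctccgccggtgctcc
Psmd9: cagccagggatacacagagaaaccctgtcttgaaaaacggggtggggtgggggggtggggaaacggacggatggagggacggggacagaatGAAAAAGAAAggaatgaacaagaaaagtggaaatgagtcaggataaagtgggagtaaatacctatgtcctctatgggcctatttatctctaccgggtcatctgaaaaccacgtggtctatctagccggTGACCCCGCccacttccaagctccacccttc
Psmd13: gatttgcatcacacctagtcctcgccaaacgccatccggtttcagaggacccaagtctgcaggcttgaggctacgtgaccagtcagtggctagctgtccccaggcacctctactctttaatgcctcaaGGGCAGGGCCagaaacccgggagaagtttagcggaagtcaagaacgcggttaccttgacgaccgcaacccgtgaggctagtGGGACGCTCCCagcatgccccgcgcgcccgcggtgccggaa
The Psmd9 stretch held an antioxidant and an interferon-stimulated match, and the other 2 held kappa B cores only. A match describes the letters and does not show that a factor bound there.

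Ep300 deletion was also compared in cells without Tet2. Between Tet2-/- and Ep300Δ/ΔTet2-/-, 5 of 47 members were narrower and 1 wider, beside 22.5% and 5.76% of all genes. The median log2 ratio was -0.09 over the members and -0.15 over all genes. Relative to that shift, 4 were narrower and 4 wider. The narrower members were Psme2, Psma6, Psma8, Psmd8 and Psmb7, the subunit with the trypsin-like site. Psmd8, a lid subunit, had 1610, 1214, 1444 and 798 bp (-0.86), lowest in Ep300Δ/ΔTet2-/-. Psmd4, a ubiquitin receptor of the cap, was the wider one with 815, 958, 872 and 1583 bp (0.86), and its highest value was in the same cells. None of the 47 lost the mark and neither of the 2 without gained it, beside 10.7% lost and 3.67% gained among all genes.

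Of the 47 members with H3K27ac in all lists, 2 (Psma6 and Psme2) were narrower in both Ep300 comparisons and 0 were wider in both, beside 12.5% and 0.374% of all genes with a peak in all 4 lists. The 2 comparisons share no library.

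**Figure D2:**
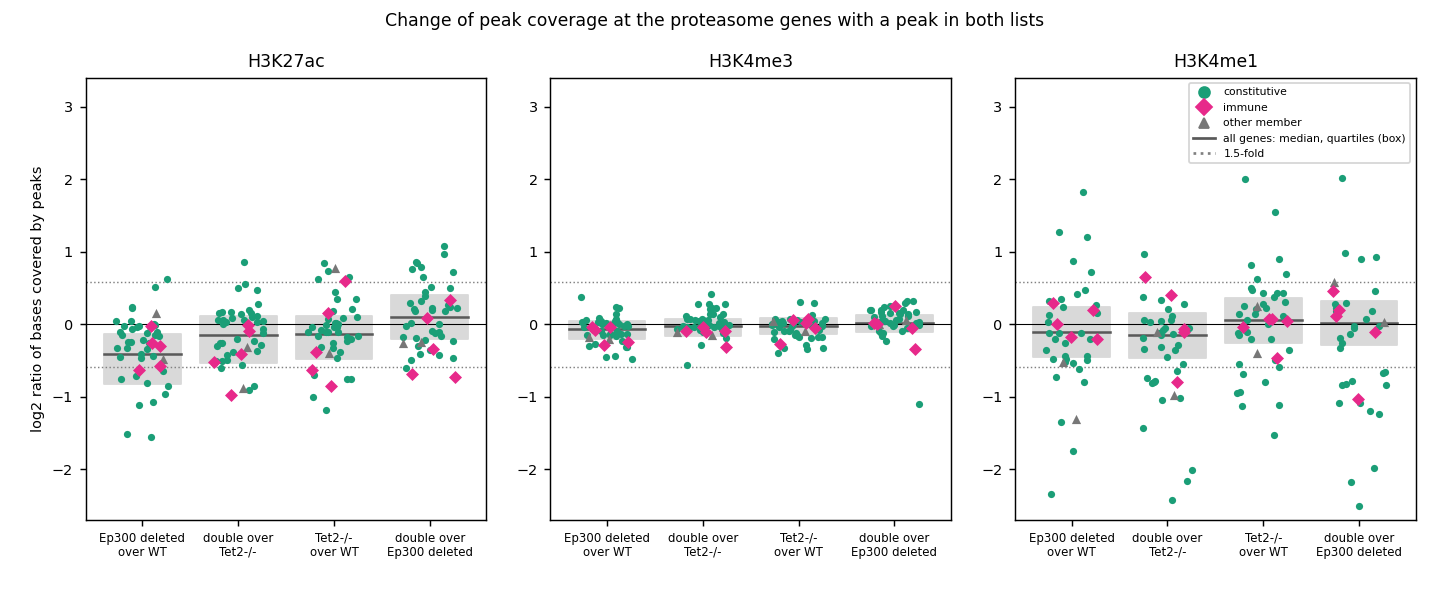
Log2 ratio of covered width (y axis) for each member with a peak in both lists (points), for each mark and each of the 4 genotype comparisons (x axis, "double" is Ep300Δ/ΔTet2-/-), with the median and quartiles of all genes as a line and box and dotted lines at 1.5-fold. H3K4me3 ratios lie within 1.5-fold for all members but Psmd9, H3K27ac ratios run from -1.55 to 1.08, and H3K4me1 ratios from -2.51 to 2.02.

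Loss of Tet2 was compared in the same way. Between WT and Tet2-/-, 7 members were narrower and 6 wider in H3K27ac, beside 20% and 6.82% of all genes, with median log2 ratios of -0.07 and -0.13. None of the 47 lost the mark here and neither of the 2 without gained it (all genes 6.43% and 4.7%). Relative to the all-gene median, 5 were narrower and 6 wider, and with the gene body alone 3 (6.38%) were wider. The narrower ones were Psmg1 (-1.18), Psmf1 (-1.0), Psmb8 (-0.84), Psmd13, Psmd7, Psma6 and Psme1. Wider members were Psmg4 (0.84), Psma8 (0.77), Psmc2 (0.74), Psmb2, Psmb6 and Psmb10. This comparison and that of WT with Ep300Δ/Δ share the WT list.

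With Ep300 deleted, more members were wider than narrower over the extended stretch, but not with the gene body alone (3 wider and 5 narrower). Between Ep300Δ/Δ and Ep300Δ/ΔTet2-/-, 3 members were narrower and 8 wider, beside 10.7% and 15.9% of all genes, and the median log2 ratio was 0.09 over the members and 0.11 over all genes. Again none of the 47 lost the mark and neither of the 2 without gained it (all genes 8.09% and 5.03%). Relative to the all-gene median, 4 were narrower and 7 wider. Psmg4, a chaperone of the alpha ring that pairs with Psmg3, had 562, 660, 1006 and 1400 bp and was wider in both Tet2 comparisons (0.84 and 1.08). Psmg3 had 705, 591, 655 and 931 bp, wider in this comparison only (0.66). Psmd3, a lid subunit, had 619, 591, 786 and 1153 bp (0.96), and Psma5, an alpha subunit, 978, 582, 951 and 1058 bp (0.86). Psmb8, in contrast, was narrower in both Tet2 comparisons (-0.84 and -0.68). In all, 1 of 47 was narrower in both and 1 wider in both, beside 4.09% and 2.21% of all genes.

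H3K4me3 was nearly even across genotypes. Its median width over the members was 2063, 1824, 1814 and 1931 bp, beside 1986, 1853, 1942.5 and 1872 bp over all genes, and single values ran from 570 bp at Psma8 in Ep300Δ/Δ to 3895 bp at Psmb9 in Tet2-/-. No member was narrower or wider between WT and Ep300Δ/Δ (all genes 4.59% and 3.08%), between Tet2-/- and Ep300Δ/ΔTet2-/- (4.33% and 1.78%) or between WT and Tet2-/- (2.97% and 2.81%). Between 38 and 42 of the 47 stayed within 1.2-fold in each comparison. Between Ep300Δ/Δ and Ep300Δ/ΔTet2-/-, 1 was narrower and none wider, beside 4.13% and 2.61% of all genes. It was Psmd9, with 2179, 2415, 1665 and 1134 bp in 5, 5, 3 and 1 peaks, and the call was lost when only 3 kb around starts or only the widest peak was counted. None of the 47 lost the mark in these 4 comparisons (all genes 1.63%, 1.61%, 1.51% and 2.28%), and neither Psmb11 nor Psme2b gained it (all genes without a peak 6.06%, 3.99%, 4.27% and 3.82%, in the same order).

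Within those limits the named genes moved little. Psmd7, a lid subunit, had 2065, 1484, 1642 and 1635 bp (-0.48 between WT and Ep300Δ/Δ), highest in WT as it was for H3K27ac. Psmg2, the partner of Psmg1, had 2848, 2077, 2486 and 2039 bp (-0.46), lower in both Ep300-deleted lists. Psme3, the nuclear activator, went the other way with 1719, 2242, 1727 and 2096 bp (0.38), higher in both. Psmc1, an ATPase, had 1425, 1463, 1123 and 1505 bp, lowest in Tet2-/- (-0.34 from WT). Psma4 was lowest in WT, at 1494 bp against 1764 to 1825 bp.

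H3K4me1 was the mark that varied most between genotypes. A peak was found at 47, 41, 45 and 42 of 49 members, beside 68.96, 69.08, 68.61 and 69.73% of all genes, and Psma8 and Psme2b had none in any list. In WT the median width over the members was 1093 bp, beside 1833 bp over all genes. The widest stretch was at Psma6 (8154, 6357, 7392 and 5782 bp). Psmd9 (6661, 5767, 4440 and 4806 bp) came next in WT and Ep300Δ/Δ, and Psmb8 (5201, 4545, 5461 and 5205 bp) in Tet2-/- and Ep300Δ/ΔTet2-/-. Psma6 and Psmd9 also had H3K27ac peaks over 2 kb from any start in WT, as did Psmd7, Psmd14 and Psmg1. At constitutive members with a peak, H3K4me1 covered the start itself in 5 of 40, 4 of 34, 3 of 38 and 3 of 35. H3K4me3 covered it in 39, 39, 40 and 40 of 40, and H3K27ac in 32, 21, 31 and 28 of 40, lowest in Ep300Δ/Δ. The whole H3K27ac lists covered 18.72, 11.48, 14.95 and 11.87 Mb, also lowest in Ep300Δ/Δ.

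H3K4me1 was present in some lists and not in others at 10 members, all constitutive, and their WT widths, 175 to 1066 bp, lay below the median of 1093 bp. Between WT and Ep300Δ/Δ, 6 of the 47 with it lost it and 0 of the 2 without gained it, beside 5.05% and 11.6% of all genes. The 6 were Psmc4, Psmd2, Psma3, Psmb5 with the chymotrypsin-like site, Psmg2 and the activator Psme4. Their WT widths were 405, 240, 951, 347, 1018 and 175 bp. Psmd2 had no H3K4me1 outside WT, and Psme4 had it in WT and Tet2-/- only. Psmc4, Psma3, Psmb5 and Psmg2 had it again in Ep300Δ/ΔTet2-/- (670, 418, 335 and 292 bp). These 4 of the 8 without it in Ep300Δ/Δ thus counted as gained between Ep300Δ/Δ and Ep300Δ/ΔTet2-/- (all genes 12.1%). In the same comparison 3 of 41 lost it, Psmd1, Psmb2 and Psmc6 (all genes 4.49%). Between Tet2-/- and Ep300Δ/ΔTet2-/- these 3 and Psme4 were lost, of 45 with it, and Psma1 was gained, of 4 without it (all genes 4.43% and 13.3%). Between WT and Tet2-/-, Psmd2 and Psma1 were lost, of 47 with it, and neither of the 2 without gained it (all genes 5.25% and 10.5%). When only peaks of -log10 q of at least 5 were kept, 41, 32 and 34 of 49 members had H3K4me1 in WT, Ep300Δ/Δ and Ep300Δ/ΔTet2-/-.

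**Figure D3:**
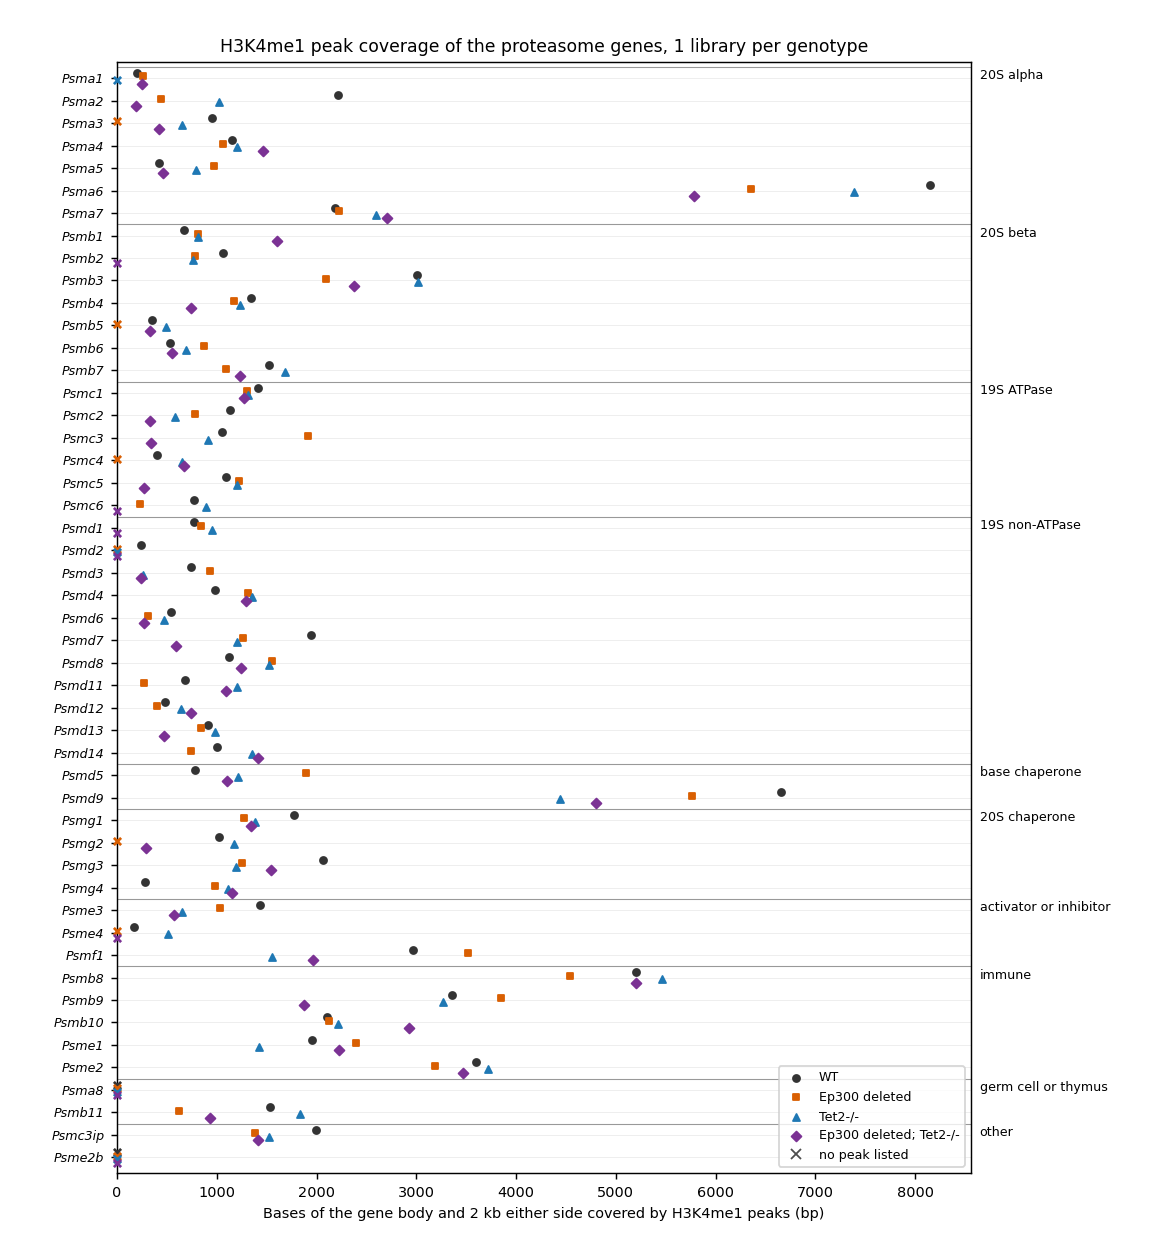
H3K4me1 covered width in bp (x axis) for each proteasome gene (y axis, grouped by role), with a point for each of the 4 genotypes. Psma6 (5782 to 8154 bp) lies furthest right in every genotype. Psmd9 (4440 to 6661 bp) follows in WT and Ep300Δ/Δ, and Psmb8 in Tet2-/- and Ep300Δ/ΔTet2-/- (5461 and 5205 bp). Psma8 and Psme2b have no peak, and crosses at 0 mark the lists in which a member had none.

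Among members with H3K4me1 in both lists, 7 of 41 were narrower and 5 wider between WT and Ep300Δ/Δ (all genes 18.8% and 12.3%). With the gene body alone this turned to 4 narrower and 10 wider of 38, and at -log10 q of at least 5, 11 of 30 were narrower. By the widest peak, 12 were narrower and 10 wider of 41. The counts were 13 and 2 of 41 between Tet2-/- and Ep300Δ/ΔTet2-/- (19% and 10.3%, and 8 of 37 narrower with the gene body alone), 8 and 6 of 45 between WT and Tet2-/- (12.3% and 15%) and 14 and 5 of 38 between Ep300Δ/Δ and Ep300Δ/ΔTet2-/- (12.9% and 14.4%). Between WT and Tet2-/- there were more wider than narrower members by the widest peak (7 and 5 of 45) and at -log10 q of at least 5 (10 and 7 of 39). The last of these shares, 36.84% narrower between Ep300Δ/Δ and Ep300Δ/ΔTet2-/-, fell to 18.42% when only the widest peak was counted. The median log2 ratios of all genes were -0.11, -0.15, 0.05 and 0.02 in the same order, beside -0.17, -0.14, 0.07 and -0.08 over the members.

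Psma2, an alpha subunit, had 2219, 439, 1026 and 192 bp of H3K4me1 and log2 ratios of -2.34 and -2.42 in the 2 Ep300 comparisons. Both Ep300-deleted lists lay below both others, but all 7 of its WT peaks were short, at 175 to 640 bp, and 6 of them were nearest to the start of another gene. The ATPases Psmc5 (1093, 1223, 1203 and 270 bp) and Psmc3 (1048, 1916, 909 and 337 bp) were lowest in Ep300Δ/ΔTet2-/-, with ratios of -2.16 and -1.43 to Tet2-/-, and -2.18 and -2.51 to Ep300Δ/Δ. Psmc2, another ATPase, was lowest there too, with 1129, 783, 585 and 333 bp. Of the other ATPases, Psmc6 had no peak there, and Psmc1 differed little, with 1412, 1299, 1315 and 1275 bp. Psmc4 was highest there, with 405, 0, 653 and 670 bp. Psmg4 was lowest in WT with 277, 983, 1115 and 1152 bp (1.83 to Ep300Δ/Δ and 2.01 to Tet2-/-), and Psmd11, a lid subunit, was lowest in Ep300Δ/Δ with 684, 269, 1207 and 1093 bp. Over the 37 members with the mark in all 4 lists, 4 (Psma2, Psmb11, Psmd6 and Psmd7) were narrower in both Ep300 comparisons, beside 6.8% of all genes, and 6 were narrower in both Tet2 comparisons, beside 3.18%.

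The immune members were compared with the constitutive ones because they are the part of the family that interferon controls. Their median width was larger for all 3 marks in all 4 genotypes, although not every immune member lay above the constitutive median, such as Psmb8 with 864 bp of H3K27ac in Ep300Δ/ΔTet2-/-. Median H3K27ac widths were 2066, 1382, 1957 and 1360 bp over the 5 immune members and 1081.5, 931.5, 1060 and 981.5 bp over the 40 constitutive ones. For H3K4me3 they were 3366, 2757, 3553 and 3297 bp against 1962, 1771.5, 1795 and 1927.5 bp, and for H3K4me1 3356, 3186, 3264 and 2928 bp against 1012.5, 1045, 1145 and 745 bp. Among all genes with a peak, the immune medians stood at percentile 76.6, 71.6, 80.3 and 66.6 for H3K27ac, and the constitutive medians at 41.3, 48.7, 45.3 and 46. The immune median was the larger one under every way of measuring width that was tried, for each mark and genotype, by 1.09 to 4.17 times. The 5 genes form neighbouring pairs, Psmb8 with Psmb9 on chromosome 17 and Psme1 with Psme2 on chromosome 14, besides Psmb10 on chromosome 8, so they are not independent of one another.

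**Figure D4:**
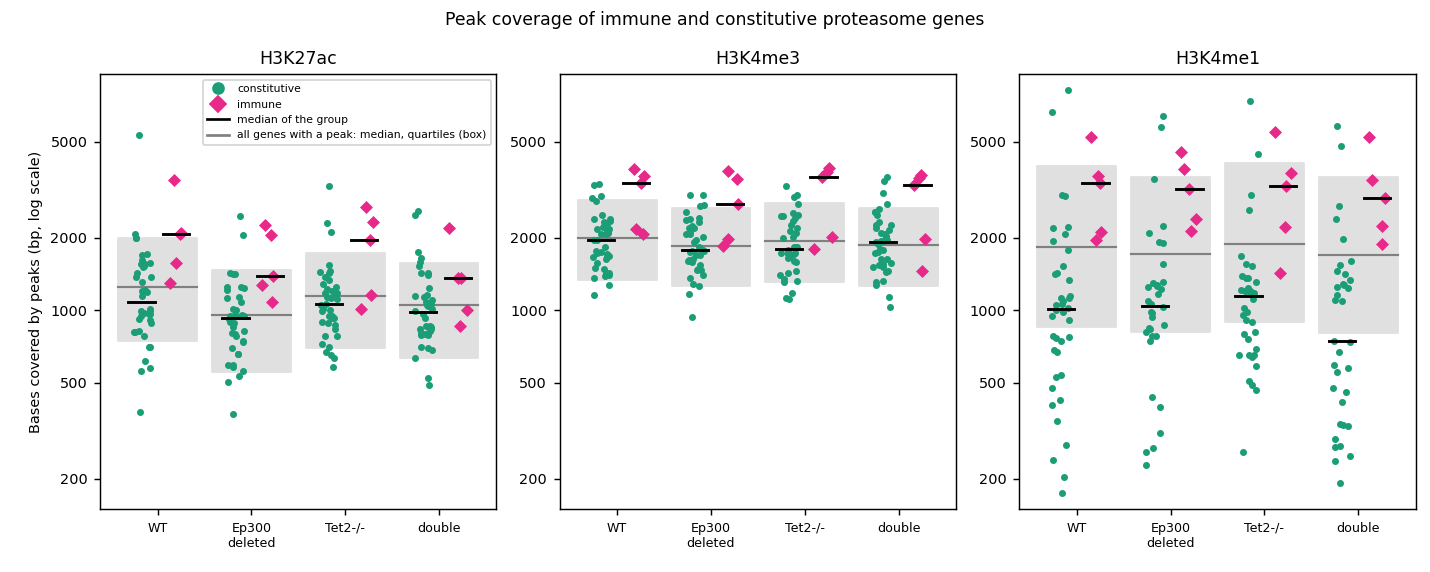
Covered width in bp (y axis, log scale) of the constitutive and immune members with a peak (points, with each group's median as a black line) by mark and genotype (x axis, "double" is Ep300Δ/ΔTet2-/-). The grey line and box are the median and quartiles of all genes with a peak. The immune median lies above the constitutive one in all 12 lists, for H3K4me1 in WT at 3356 against 1012.5 bp.

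Each immune member had all 3 marks in all 4 genotypes, but they differed from each other across genotypes in H3K27ac. Psmb9 (chr17:34181987-34187764, minus strand), which replaces Psmb6, had 2090, 2048, 2325 and 2186 bp, within 1.2-fold in every comparison, in 1 peak at its start, or 2 in Ep300Δ/Δ. Its stretch also holds the start of Tap1, a peptide transporter of antigen presentation. Psmb8 (chr17:34197721-34201454, plus strand), which replaces Psmb5, had 2066, 1382, 1152 and 864 bp, highest in WT. Its log2 ratio of -0.58 between WT and Ep300Δ/Δ fell just short of 1.5-fold, where Psme2 at -0.63 was just past it. In WT its width came from 3 peaks of 197, 227 and 1642 bp, and elsewhere from 1.

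Psmb10 (chr8:105935735-105938444, minus strand), which replaces Psmb7, had 1296, 1081, 1957 and 1362 bp, highest in Tet2-/- (0.59 from WT on the log2 scale, counted as wider). The start of Ctrl lies in its stretch. Psme1 (chr14:55578123-55581529, plus strand) had 1567, 1270, 1014 and 1004 bp, lower in both Tet2-/- lists (-0.63 from WT to Tet2-/-, counted as narrower). Psme2 (chr14:55587441-55591113, minus strand) had 3480, 2254, 2683 and 1360 bp, highest in WT and lowest in Ep300Δ/ΔTet2-/-, with ratios of -0.63 and -0.98 in the 2 Ep300 comparisons and -0.73 between Ep300Δ/Δ and Ep300Δ/ΔTet2-/-. Its own start peak measured 1956 and 1970 bp in WT and Ep300Δ/Δ, and the start region held peaks of 1391 and 674 bp in Tet2-/- and of 433 and 613 bp in Ep300Δ/ΔTet2-/-. A peak beyond its far end, nearest to another gene's start, measured 2212, 284, 618 and 314 bp. The WT to Ep300Δ/Δ difference at Psme2 therefore lay in that second peak and not at its start.

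H3K4me3 at the immune members stayed within 1.5-fold, with Psmb8 at 3366, 2757, 3553 and 3297 bp, Psmb9 at 3648 to 3895 bp, Psmb10 at 1965 to 2080 bp and Psme2 at 3489 to 3747 bp. Psme1 had 2168, 1839, 1797 and 1450 bp, lowest in Ep300Δ/ΔTet2-/- (-0.31 from Tet2-/-). In H3K4me1, Psmb9 fell below the others in Ep300Δ/ΔTet2-/- (3356, 3849, 3264 and 1879 bp), a log2 ratio of -0.80 to Tet2-/- and -1.03 to Ep300Δ/Δ. Psme1 was wider in the first of these comparisons (0.65), and no other immune member passed 1.5-fold for this mark.

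**Figure D5:**
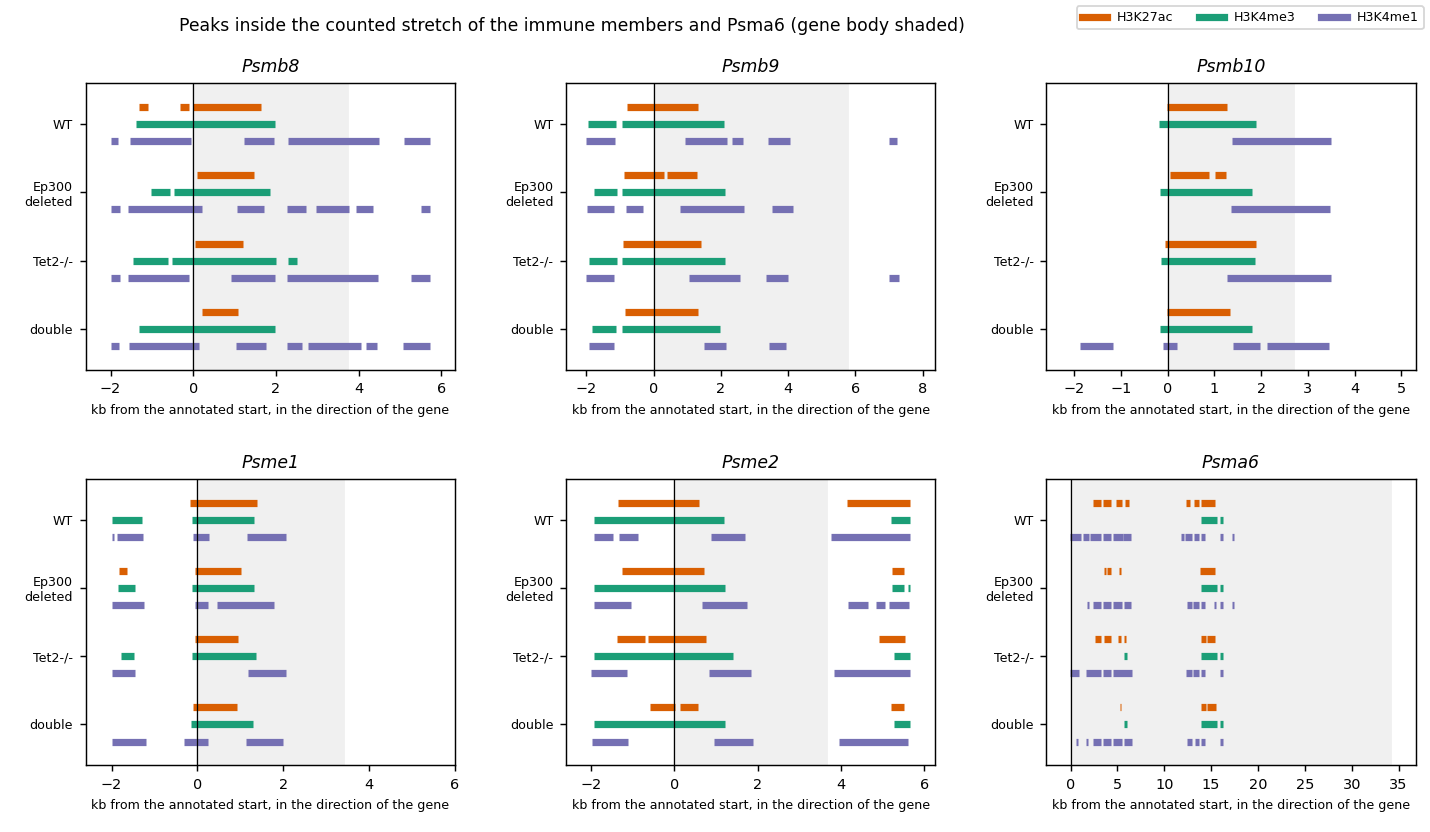
Peaks of H3K27ac, H3K4me3 and H3K4me1 in each genotype (rows) around the 5 immune members and Psma6, drawn to scale in kb from the annotated start (x axis), with the gene body shaded. The intronic H3K27ac peaks of Psma6 number 4 in WT and 1 in Ep300Δ/ΔTet2-/-, and the Psmb9 start peak is present in all 4 genotypes.

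The upstream stretches of the immune members are shown because these genes are known targets of interferon signalling, in the same format and with the same matches in capitals. Their positions on GRCm38.p6 are chr17:34197945-34198194 (plus) for Psmb8, chr17:34187331-34187580 (minus) for Psmb9, chr8:105938393-105938642 (minus) for Psmb10, chr14:55578244-55578493 (plus) for Psme1 and chr14:55591102-55591351 (minus) for Psme2.
Psmb8: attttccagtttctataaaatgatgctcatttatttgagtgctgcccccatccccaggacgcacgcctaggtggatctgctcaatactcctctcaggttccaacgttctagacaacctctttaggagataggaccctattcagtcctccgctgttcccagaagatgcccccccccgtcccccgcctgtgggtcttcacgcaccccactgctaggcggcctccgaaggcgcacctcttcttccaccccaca
Psmb9: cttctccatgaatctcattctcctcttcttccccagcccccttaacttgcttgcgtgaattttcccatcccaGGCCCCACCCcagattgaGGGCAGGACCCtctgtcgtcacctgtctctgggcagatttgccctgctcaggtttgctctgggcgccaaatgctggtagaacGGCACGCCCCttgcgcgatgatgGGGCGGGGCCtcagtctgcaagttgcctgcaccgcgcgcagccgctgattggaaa
Psmb10: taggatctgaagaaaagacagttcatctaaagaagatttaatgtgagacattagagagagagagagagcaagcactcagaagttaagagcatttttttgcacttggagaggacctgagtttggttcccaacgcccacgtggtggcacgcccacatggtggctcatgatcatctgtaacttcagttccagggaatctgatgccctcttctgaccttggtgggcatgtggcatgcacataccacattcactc
Psme1: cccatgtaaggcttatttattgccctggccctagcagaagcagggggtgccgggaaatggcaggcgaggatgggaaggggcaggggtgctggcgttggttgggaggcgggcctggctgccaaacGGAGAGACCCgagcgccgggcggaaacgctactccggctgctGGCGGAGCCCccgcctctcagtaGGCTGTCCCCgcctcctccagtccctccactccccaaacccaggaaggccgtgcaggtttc
Psme2: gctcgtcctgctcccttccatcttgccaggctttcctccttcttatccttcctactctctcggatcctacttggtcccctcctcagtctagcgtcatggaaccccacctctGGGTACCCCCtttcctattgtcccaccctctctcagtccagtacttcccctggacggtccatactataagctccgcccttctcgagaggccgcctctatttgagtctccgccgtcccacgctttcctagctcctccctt
Kappa B cores stood upstream of Psmb9, Psme1 and Psme2, and these letters were not found upstream of Psmb8 and Psmb10. The immune windows had a median observed to expected CpG ratio of 0.53, against 0.8 for the constitutive ones and 0.6 for all genes.

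RefSeq windows from 250 bases before to 50 after the start were matched for 41 of 49 members, as 44 windows. An H3K4me3 peak touched 41 of the 44 in every genotype, beside 57.4 to 58.8% of 19174 windows of all autosomal protein-coding genes. H3K27ac touched 41, 37, 40 and 40 of them, beside 38.7, 34.2, 37.7 and 33.4%. It covered the window from end to end in 15, 8, 18 and 13, beside 13.7, 7.6, 12.9 and 10.8%. Ep300Δ/Δ was the lowest in both counts. H3K4me1 touched 15.9, 15.9, 9.1 and 20.5% of the members' windows, beside 25.0, 25.3, 21.7 and 26.1% of all windows. Searched on both strands over the whole window, TGACNNNGC was found in 6 of the 44 (13.64%, all windows 13.19%), at Psmb5, Psmb6, Psmc6, Psmd12, Psmd9 and Psme4. The interferon-stimulated element was found in 5 (11.36%, all windows 3.43%), at Psmb3, Psmd4, Psmd9, Psme1 and Psmg4, where the Psme1 match lies 9 bases after the start and so outside the printed stretch. The kappa B core was found in 25 (56.82%, all windows 58.57%), GGGCGG in 23 (52.27%, 48.29%) and CCAAT in 14 (31.82%, 37.52%). The kappa B core can overlap GGGCGG.

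Genes that work with the proteasome were counted as whole lists. All 10 antigen presentation genes, among them Tap1, Tap2, Tapbp, B2m, Erap1, Nlrc5, Calr, Pdia3 and Irf1, had H3K27ac and H3K4me3 in every genotype. In H3K27ac 1, 2, 0 and 1 of them were narrower between WT and Ep300Δ/Δ, Tet2-/- and Ep300Δ/ΔTet2-/-, WT and Tet2-/-, and Ep300Δ/Δ and Ep300Δ/ΔTet2-/- (all genes 37%, 22.5%, 20% and 10.7%), and none was wider (all genes 1.83%, 5.76%, 6.82% and 15.9%). The same 2 marks were present in every genotype at all 9 proteasome-linked genes found, all 9 ubiquitin and shuttle genes and all 4 regulators. In the same order 0, 2, 1 and 0 of the 9 ubiquitin and shuttle genes were narrower and 0, 0, 1 and 1 wider, and 1, 1, 0 and 1 of the 4 regulators were narrower and none wider. Of the 9 linked genes, 1, 1, 0 and 1 were narrower in the same order and 0, 1, 0 and 1 wider. Adrm1, a ubiquitin receptor of the cap, had 1002, 401, 728 and 541 bp of H3K27ac and was the 1 narrower between WT and Ep300Δ/Δ (-1.32, all genes 37%). Pomp, which matures the 20S core, had 1446, 1363, 1548 and 535 bp, low in Ep300Δ/ΔTet2-/- alone. It was the 1 narrower there from Tet2-/- (-1.53, all genes 22.5%) and from Ep300Δ/Δ (-1.35, all genes 10.7%). Among the regulators, Ddi2, the protease that activates Nfe2l1, had 957, 614, 734 and 259 bp and was narrower in both Ep300 comparisons (-0.64 and -1.50), as were 12.5% of all genes, while Nfe2l1, a transcription factor that induces proteasome genes, had 1642, 1331, 1314 and 1317 bp.

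The members outside the somatic proteasome separated from it in different ways. Psma8 had small peaks of H3K27ac (418, 465, 714 and 389 bp) and H3K4me3 (658, 570, 618 and 573 bp) and no H3K4me1. Psmb11 had only H3K4me1, with 1536, 620, 1836 and 933 bp, lower in both Ep300-deleted lists (-1.31 and -0.98). Psme2b had no peak of any mark. Psmc3ip had all 3 marks in every genotype, with 1471, 1060, 1114 and 895 bp of H3K27ac.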

How the data were processed

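Chromatin immunoprecipitation with sequencing of H3K27ac, H3K4me3 and H3K4me1 in Lin- bone marrow cells gave 1 library per genotype and mark. According to the study's methods and the submitters' processing notes, the authors used Cutadapt 1.15 for trimming, BWA 0.7.13 for alignment to mm10 and Picard for duplicates, and called narrow peaks with MACS2 2.1.1.20160309 against H3, overlapped across pseudo-replicates at a q of 0.05. The deposited lists give each peak's coordinates, its fold over the H3 background and -log10 p-values and -log10 q-values. The deposited score column was not used. A Drosophila spike-in was added, and the study's methods describe no scaling of the lists by it. The read layout is given as single-end in one source and paired-end in another. Another 8 samples (H3 and H3K27me3) had no peak list here and were not used.

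Covered width, peak presence and distances were computed in Python 3.11.15 with numpy 2.4.6 and pandas 2.3.3, with an overlap of at least 1 bp, and intervals are exact Clopper-Pearson (scipy 1.17.1). Overlaps were checked against bedtools 2.31.1 and tested on simulated data. Figures were drawn with matplotlib 3.10.9. Peaks were compared by width because fold depends on each library's unknown depth. With 1 library a group no test was possible and shares are set beside the same shares over all 20807 autosomal protein-coding genes. The members, their roles, the lists and the motifs were chosen with earlier results of these data known. The genes to name were the immune, germ cell and thymus members and members without a peak in any list. For each comparison the 3 (H3K27ac) or 2 (H3K4me3 and H3K4me1) largest decreases and increases were added. Not all of these changes are given above, among them H3K4me1 at Psmc6 (-1.75) and Psmd5 (1.28) between WT and Ep300Δ/Δ. Members narrower in H3K27ac in both Ep300 comparisons are named too. Others named as narrower, wider, lost or gained, or as examples of a role, were chosen after their values were seen. Of the lists, Paaf1, Shfm1 and AI314180 were not found as symbols. Alternatives were the gene body alone, 3 kb around starts, a 200 bp overlap, -log10 q of at least 5, lists of equal size, the widest peak, peaks nearest to the gene's start, the members without the germ cell, thymus and non-proteasome genes and, chosen after seeing the data, ratios relative to the median of all genes.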

Additional observations from a re-analysis of the deposited data

Results flagged for a closer look

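Widths that moved past 1.5-fold in opposite directions under the same contrast on the 2 backgrounds were found among the members in H3K4me1, at 2 of 37 for Ep300 deletion and 2 of 37 for Tet2 loss, beside 3.86% and 3.48% of all genes. In H3K27ac there were 0 of 47 for each, beside 2.26% and 3.13%, and in H3K4me3 0 of 47, beside 0.476% and 0.522%. At Psmc3, an ATPase of the cap, the log2 ratio after Ep300 deletion was 0.87 between WT and Ep300Δ/Δ and -1.43 between Tet2-/- and Ep300Δ/ΔTet2-/-. At Psma5, an alpha subunit of the core, it was 1.2 and -0.79 for Ep300 deletion, and 0.90 and -1.09 for Tet2 loss in WT and in Ep300Δ/Δ cells. Psmd5, a chaperone of the base, had 0.63 and -0.79 for Tet2 loss. With 1 library per genotype the difference between backgrounds was not tested.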

How the results depend on the processing

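No paired analysis was possible because each genotype and mark had 1 library. Of 300 recomputed values for 36 results, 277 stayed within the interval of the value reported and 23 did not, and the cause was not tested except where fewer genes were counted. Without the germ cell, thymus and non-proteasome members, presence was 100% in all 8 H3K27ac and H3K4me3 lists and in WT H3K4me1, which follows from leaving out the genes without peaks. At -log10 q of at least 5, presence of H3K4me1 was 83.67% in WT, 65.31% in Ep300Δ/Δ and 69.39% in Ep300Δ/ΔTet2-/-. Between WT and Ep300Δ/Δ, narrower H3K27ac was 8.51% relative to the all-gene median (4 of 47 against 11), an alternative chosen after seeing the data, and wider H3K27ac was 0.0% with the gene body alone, with -log10 q of at least 5 and with peaks nearest to the gene's start (0 of 47 against 1), and 4 of 47 relative to the median. Between Ep300Δ/Δ and Ep300Δ/ΔTet2-/-, wider H3K27ac was 6.38% with the gene body alone (3 of 47 against 8), narrower H3K27ac reached 7 against 3 with the widest peak, and narrower H3K4me3 was 0.0% with 3 kb around starts and with the widest peak. For H3K4me1, narrower members between WT and Ep300Δ/Δ were 36.67% at -log10 q of at least 5 (11 of 30 against 7 of 41, and 4 of 38 with the gene body alone) and wider members 26.32% with the gene body alone (10 of 38 against 5 of 41), and the widest peak gave 12 and 10 of 41. Between Ep300Δ/Δ and Ep300Δ/ΔTet2-/-, narrower members were 18.42% with the widest peak (7 of 38 against 14) and wider members 29.63% at -log10 q of at least 5 (8 of 27 against 5 of 38, and 2 of 34 with the gene body alone). Other counts that differed by more than 1.5 times included wider H3K27ac between Tet2-/- and Ep300Δ/ΔTet2-/- (4 relative to the median, against 1) and between WT and Tet2-/- (3 with the gene body alone, against 6), and H3K4me1 between WT and Tet2-/-, with 5 narrower by the widest peak against 8 and 10 of 39 wider at -log10 q of at least 5 against 6 of 45, and 8 of 37 narrower H3K4me1 between Tet2-/- and Ep300Δ/ΔTet2-/- with the gene body alone against 13 of 41. In H3K4me3, narrower and wider members between WT and Ep300Δ/Δ and between WT and Tet2-/- numbered 0, and at most 1 under any alternative. Peak lists hold no read counts, so depth, and whether a missing peak is an absent mark, cannot be read from them.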
